A study of Mus musculus with 6 samples.

Results

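The genes described here are Hspa4l and 9 other heat shock chaperone genes, 10 of the 34745 genes in the expression table of the series. They comprise the HSP110 family (Hspa4l, Hspa4 and Hsph1), the HSP70 genes Hspa1a, Hspa1b and Hspa8, the small heat shock protein gene Hspb1, the HSP70 cochaperone genes Bag3 and Dnajb1, and Hsf1, which encodes the heat shock transcription factor. Members were taken by gene symbol, and all 10 were found. They were chosen with their counts in these same control and D-gal libraries already known, so the difference between the groups is given for them as a description, without a test.

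Heat shock chaperones bind unfolded or partly folded proteins, keep them from aggregating and help them refold. HSP70 proteins do this in cycles of ATP binding and hydrolysis, in which J proteins such as Dnajb1 deliver substrates and nucleotide exchange factors reset the cycle. HSP110 proteins are large relatives of HSP70 that serve as its nucleotide exchange factors and hold unfolded proteins themselves, and the transcription factor HSF1 switches many of these genes on when unfolded proteins accumulate.

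RNA was sequenced from NOR-10, an established line of mouse skeletal muscle fibroblasts, after D-galactose (D-gal) or PBS. The study uses D-gal, a sugar given in excess, to induce senescence, and asked which transcripts differ in the treated fibroblasts. There were 3 control libraries (PBS) and 3 D-gal libraries (20 mg/mL for 3 days, as the study's methods give it). Both groups are the same unmodified line, and the sources used here give no time for PBS and no mouse age or strain. No label says that the 3 libraries of a group came from separate cultures, so the spread between them, and every p-value, may be technical. Library totals were 16876087 to 20830349 counts for control against 13759108 to 15157064 for D-gal, so the D-gal libraries were all shallower.

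Of 13407 genes with enough counts to test, 318 (2.37%) were differentially expressed and higher with D-gal, and 246 (1.83%) were differentially expressed and lower. Differential expression here means an adjusted p under 0.05 in edgeR (quasi-likelihood test, Benjamini-Hochberg adjustment) and a log2 fold change whose size is 1 or more. With the adjusted p alone, 16.9% of the genes tested were higher and 17.8% lower. The 3 D-gal values lay above all 3 control values in 24.1% of the genes and below them in 25% of the genes. The median log2 fold change over all genes tested was 0.004.

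Fibroblast genes were abundant in all libraries, with 9 of 10 listed markers at a mean of 1 FPKM or more and the other, Lum, near 0. Their summed level was 1248 to 1267 FPKM for control against 745.3 to 769.7 FPKM for D-gal. The markers did not all shift alike. Fn1 had 110120.9, 114765.9 and 111351.2 normalized reads in the controls against 48768.4, 43751.6 and 47183.9 after D-gal. Pdgfrb alone among them was higher after D-gal, at 7695.2, 8052.3 and 7931.1 against 6906.2, 7068 and 6717.7 in the controls. The summed levels of the other marker lists were at most 2.76 FPKM for myogenic cells (8 genes, with Pax7, Myf5 and Myod1 at 0 in all libraries), 0.626 FPKM for endothelial cells (4 genes), 4.22 FPKM for leukocytes (4 genes), 0.00755 FPKM for adipocytes (3 genes) and 1.55 FPKM for epithelial cells (4 genes). The part of these shifts in the chaperone values was not tested.

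All 10 chaperone genes passed the filter on low counts. The D-gal values lay above all control values in 7 members (24.1% of all genes tested) and below them in 1, Dnajb1 (25% of all genes), and the groups overlapped in Hspa1a and Hsf1. The median log2 fold change over the members was 0.20, and the range was -0.29 (Hspa1a) to 1.69 (Hspa4l). Since the genes were chosen on this contrast, nothing is read from these counts. A higher or lower RNA level in these bulk samples cannot be told apart from a larger or smaller share of cells that make the RNA.

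**Figure D1:**
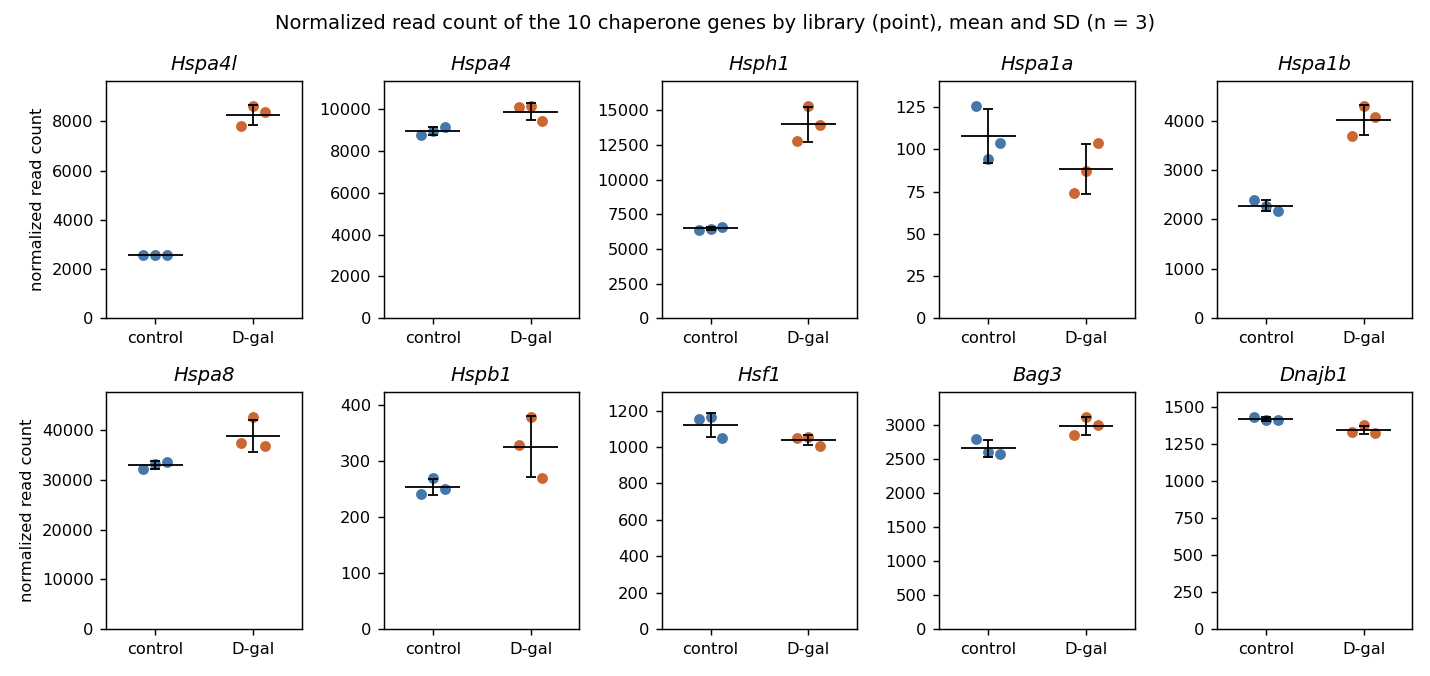
Normalized read count (vertical axes, each from 0) of the 10 chaperone genes in the 3 control and 3 D-gal libraries; points are libraries, horizontal lines are means and bars are SD (n = 3). Hspa4l, Hsph1 and Hspa1b show the widest gaps between the groups relative to the control mean, with D-gal means of 8259.9, 13991.1 and 4017.0 against control means of 2568.8, 6468.4 and 2279.5.

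Hspa4l encodes an HSP110 protein that is abundant in developing sperm cells of the testis and is also known as an osmotic stress protein of the kidney. The gene (ENSMUSG00000025757) lies on the plus strand at chr3:40744495-40796103 of GRCm38. Its normalized read count was 2562.9, 2566.3 and 2577.2 in control libraries 1 to 3 and 7801.9, 8609.2 and 8368.5 in D-gal libraries 1 to 3. The control libraries were almost equal, with a coefficient of variation of 0.291%, and the D-gal libraries spread more widely (5.02%) but all lay above 3 times the highest control value. Each of these spreads rests on 3 libraries, and whether they differ was not tested. The log2 fold change was 1.69 with a standard error of 0.041, a 3.21-fold difference. By log2 fold change from high to low, Hspa4l took place 102 of the 13407 genes tested.

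Hsph1, which encodes HSP105, the member of the family most closely tied to heat shock, lies on the minus strand at chr5:149614287-149636376. Normalized, its reads numbered 6392.0, 6447.1 and 6566.2 in the controls against 12761.1, 15267.1 and 13945.0 after D-gal. All D-gal values were far above the control values, and D-gal library 2 was the highest and library 1 the lowest, the same order as for Hspa4l. The log2 fold change was 1.11 (standard error 0.059), or 2.16-fold, place 292 of all genes tested. Hspa4, the constitutive member of the family, lies on the minus strand at chr11:53259814-53300457. Per library it had normalized read counts of 8752.8, 8966.0 and 9133.3 among controls, while D-gal libraries gave 10076.7, 10120.6 and 9427.6. Here the groups also did not overlap, but the distance from the highest control to the lowest D-gal library was small, and the log2 fold change was 0.14 (standard error 0.036).

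On a scale per gene length, the makeup of the family differed between the groups. The summed level of the 3 genes was 130.3 ± 1.99 FPKM for control against 207.3 ± 9.97 FPKM for D-gal (SD, n = 3 each). Hspa4l held 8.46%, 8.32% and 8.21% of the sum in controls 1 to 3, compared with 16.8%, 17.1% and 17.8% under D-gal. Hsph1 held 25.9% ± 0.136 of the control sum and 36.0% ± 1.81 of the D-gal sum, and the share of Hspa4 was 65.8% ± 0.251 and 46.8% ± 2.14. Hspa4 thus had the highest FPKM of the family in all 6 libraries, and Hspa4l the lowest. The lengths behind the deposited FPKM were 13927 bases for Hspa4l and 11284 for Hsph1, whereas the merged exons of the GENCODE M21 annotation gave 11792 and 7266. With the merged exons the share of Hspa4l was 7.99% in the control and 15.9% in the D-gal group. With them the D-gal level of Hsph1 (105.4 to 126.9) overlapped that of Hspa4 (102.9 to 110.6), so the order of these genes in D-gal depends on the length used.

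**Figure D2:**
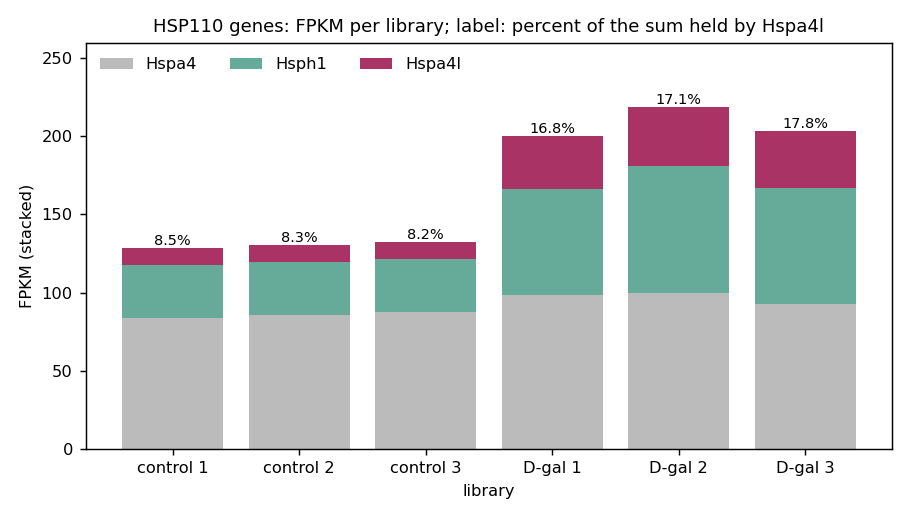
FPKM of Hspa4, Hsph1 and Hspa4l stacked for each library, with the share of the sum held by Hspa4l written above each bar. The sums were 128.3 to 132.3 FPKM in the control libraries and 199.9 to 218.7 FPKM in the D-gal libraries, and the Hspa4l share lay between 8.21% and 8.46% in the former and between 16.8% and 17.8% in the latter.

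The HSP110 genes differ in sequence, although their proteins are alike. Translated from the longest coding sequence of each gene, Hspa4l (838 residues) was identical to Hspa4 (842 residues) at 64.0% of aligned residues and to Hsph1 (858 residues) at 60.0%, and only 34.6% of residues aligned to Hspa8 were the same. In windows of 100 residues, identity to Hspa4 reached 86% in residues 121 to 220 of Hspa4l and was 33% in residues 501 to 600. Against Hsph1 the corresponding values were 80% in residues 121 to 220 and 33% in residues 491 to 590. The ATP-binding part of these proteins lies at the amino-terminal end.

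**Figure D3:**
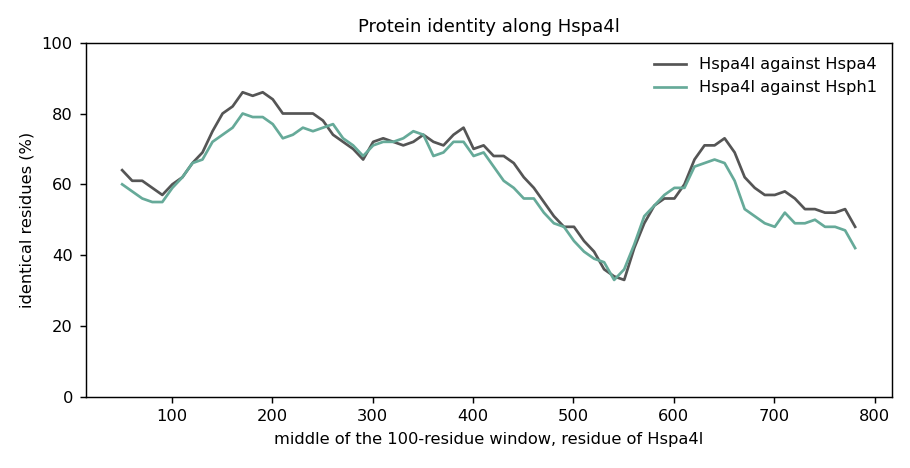
Percent of identical residues (vertical axis, 0 to 100) between Hspa4l and each of Hspa4 and Hsph1 in windows of 100 residues of Hspa4l (horizontal axis, middle of the window). Both lines are highest toward the amino-terminal end, at 86% and 80%, and lowest at 33% near residue 550.

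The stretch of 20 residues most alike in the 3 HSP110 proteins, within a single exon in each gene, held the same 20 residues in all of them. It is printed as 60 coding bases on the coding strand, read from the GENCODE M21 transcripts, to show how far the genes differ even where the proteins are the same. Capitals mark the bases that differ from Hspa4l, 11 of 60 in Hspa4 and 18 of 60 in Hsph1. The coding bases lie in residues 605 to 624 of Hspa4l at chr3:40784229-40784288 (plus strand), 604 to 623 of Hspa4 at chr11:53265990-53266049 (minus strand) and 620 to 639 of Hsph1 at chr5:149619943-149620002 (minus strand).
Hspa4l: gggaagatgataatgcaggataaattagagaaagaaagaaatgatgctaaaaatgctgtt
Hspa4: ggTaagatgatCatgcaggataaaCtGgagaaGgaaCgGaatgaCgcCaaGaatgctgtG
Hsph1: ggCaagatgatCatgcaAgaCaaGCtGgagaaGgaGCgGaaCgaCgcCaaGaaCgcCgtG
Over whole transcripts, 0.655% of the 31-base words of Hspa4l and 0% of those of Hspa4 and Hsph1 also occurred in another annotated gene. None of the 3 genes overlapped an exon of another gene on either strand.

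The HSP70 genes differed among themselves. Hspa1b, a stress-inducible HSP70 gene, lies at chr17:34956436-34959238 on the minus strand as a single exon. Its normalized read count was 2394.7, 2264.3 and 2179.3 in controls, compared with 3691.1, 4288.2 and 4071.6 under D-gal, so that the groups were well apart. The log2 fold change was 0.82 (standard error 0.061), or 1.76-fold. Hspa1a, its neighbour at chr17:34969190-34972156 on the same strand, had 125.5, 94.7 and 104.0 normalized reads in the controls against 74.1, 87.4 and 103.6 after D-gal. The ranges overlapped, and the log2 fold change was -0.29 (standard error 0.17).

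Hspa1a and Hspa1b encode nearly the same protein, with 641 of 641 aligned residues identical, and 70.1% of the 31-base words of Hspa1a and 68.1% of those of Hspa1b occurred in another gene, mostly in each other. Hspa1a also overlaps Gm20481 on the opposite strand, and whether the counting used strand is not given in the sources used here. Of the counts of both genes together, 4.52% ± 0.485 were assigned to Hspa1a for control against 2.15% ± 0.289 for D-gal (SD, n = 3). The split between these genes is therefore uncertain, so their sum is given as well. Summed before normalization, the counts were 2892, 2891 and 2261 among controls, against 3355, 4007 and 3465 in the shallower D-gal libraries, and after normalization the log2 fold change was 0.78 (standard error 0.062).

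Hspa8 encodes HSC70, the constitutive HSP70 of the cytosol, lies on the plus strand at chr9:40800984-40805200 in the deposited table and had the highest level per length of the 10 genes in both groups. Normalized, its reads numbered 32237.3, 33303.4 and 33672.1 among controls, while D-gal libraries gave 37410.1, 42684.8 and 36840.5. D-gal library 2 stood above the other D-gal libraries, and the groups did not overlap. On the log2 scale the difference was 0.24 (standard error 0.054). Of its 31-base words, 44.8% also occurred in other genes, mainly in Gm15459. The small nucleolar RNA genes Snord14c, Snord14d and Snord14e overlap its exons on the same strand when the exons of all its annotated transcripts are merged.

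Hspb1, which encodes the small heat shock protein HSP27 (HSP25 in mice), lies at chr5:135887919-135889563 on the plus strand. Per library it had normalized read counts of 241.4, 268.5 and 250.4 in controls, compared with 327.7, 377.8 and 269.9 under D-gal. D-gal library 3 lay just above the highest control library while the other D-gal libraries were clearly higher. The log2 fold change was 0.36 (standard error 0.125), the largest standard error among the members after Hspa1a. Of its 31-base words, 55.4% also occurred in other genes, mainly in Hsp25-ps1.

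Bag3 encodes a nucleotide exchange factor that links HSP70 to small heat shock proteins and to selective autophagy, and lies on the plus strand at chr7:128523616-128546981. Its normalized read count was 2796.5, 2598.9 and 2574.2 in the controls against 2852.8, 3113.3 and 2999.1 after D-gal. The log2 fold change was 0.17 (standard error 0.048). The groups did not overlap, though control library 1 came close to D-gal library 1. Dnajb1, the heat-inducible J protein HSP40 (plus strand, chr8:83608175-83611902 as deposited), had 1431.8, 1409.2 and 1410.8 normalized reads among controls, while D-gal libraries gave 1333.2, 1379.2 and 1323.0. It was the member whose D-gal values all lay below the control values, by a narrow margin, and the log2 fold change was -0.08 (standard error 0.039).

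Hsf1, whose protein is regulated mainly after translation (plus strand, chr15:76477445-76500972 as deposited), had 1153.8, 1163.6 and 1047.2 normalized reads in controls, compared with 1050.4, 1053.8 and 1004.9 under D-gal. Control library 3 lay among the D-gal libraries, so the groups overlapped. On the log2 scale the difference was -0.11 (standard error 0.055). The activity of the HSF1 protein was not measured here.

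By deposited FPKM, a level per gene length, the control order ran from Hspa8 (214.1), Hspa4 (85.7), Bag3 (61.0), Hspa1b (47.8) and Dnajb1 (36.8) through Hsph1 (33.7) and Hsf1 (32.7) to Hspa4l (10.9), Hspb1 (8.13) and Hspa1a (2.14). Of these neighbours only Hsph1 and Hsf1 overlapped over the 3 libraries. In D-gal the order was Hspa8 (258.5), Hspa4 (96.9), Hspa1b (86.4), Hsph1 (74.7), Bag3 (70.3), Dnajb1 (35.8), Hspa4l (35.7), Hsf1 (30.9), Hspb1 (10.7) and Hspa1a (1.80). There Hspa1b overlapped Hsph1, Hsph1 overlapped Bag3, and Dnajb1 overlapped Hspa4l. By these lengths Hspa4l, at place 8 in the control group, was at about the level of Dnajb1 in D-gal. With merged exons they did not overlap in D-gal, at 42.2 for Hspa4l and 25.3 for Dnajb1. In the control group Hspb1 (14.5) then lay above Hspa4l (12.8), and Hsph1 (52.4) above Hspa1b (47.8). The place of Hsf1 also depends on the length, since the deposited FPKM used 2018 bases and the merged exons measured 7099. With merged exons Hsf1 was at 9.29 in the control and 8.80 in the D-gal group, below Hspa4l in both.

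The promoter windows of the members were searched for the letters of heat shock elements, the sites that HSF1 binds as a trimer. The windows come from RefSeq on GRCm38.p6 and hold 250 bases before and 50 after each start. Of the 10 members, 8 matched, with 10 windows in all, and Hspa8 and Hsf1 have no entry in that table. Inverted pairs of the heat shock unit were searched as GAANNTTC and TTCNNGAA, each of which reads the same on both strands. In 32851 promoters of the table, GAANNTTC was found in 7.86%, TTCNNGAA in 8.52% and either of them in 15.1%, and 3 units in a row, where the pairs overlap, in 0.603%.

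Among the members, 5 of 8 genes held a pair (Hsph1, Hspb1, Hspa1a, Hspa1b and Bag3) and 3 held none in these windows (Hspa4l, Hspa4 and Dnajb1). The only Hspa4l window, chr3:40745363-40745662 on the plus strand, lies inside the gene span, which starts at 40744495. The bases before that gene start were thus not searched. Hsph1 was the single gene with 3 units in a row. These are matches of letters, and binding was not measured. The stretches that hold the pairs of Hsph1, Hspa1a, Hspa1b and Hspb1 are printed with the pairs in capitals, numbered from the RefSeq start, where -1 is the last base before it. The Hsph1 stretches run from -44 to -15 of its first start (chr5:149636351-149636380, minus strand) and from 8 to 37 of its second start (chr5:149636279-149636308, minus strand). Those of Hspa1a (chr17:34972157-34972276, minus strand) and Hspa1b (chr17:34959239-34959358, minus strand) run from -120 to -1, and that of Hspb1 from -120 to -81 (chr5:135887799-135887838, plus strand).
Hsph1, upstream: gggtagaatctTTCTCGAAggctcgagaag
Hsph1, downstream: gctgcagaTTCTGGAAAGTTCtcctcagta
Hspa1a: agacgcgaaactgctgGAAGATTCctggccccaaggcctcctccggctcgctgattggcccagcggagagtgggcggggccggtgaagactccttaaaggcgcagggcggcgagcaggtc
Hspa1b: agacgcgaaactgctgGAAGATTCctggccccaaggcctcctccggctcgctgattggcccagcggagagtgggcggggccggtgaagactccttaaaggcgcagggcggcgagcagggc
Hspb1: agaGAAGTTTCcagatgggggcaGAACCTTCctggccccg
The downstream Hsph1 stretch shows 3 units in a row. The stretches of Hspa1a and Hspa1b differed at 1 of 120 bases and their whole windows at 4 of 300. CCAAT (or ATTGG), the letters of the NF-Y box, was found in 37.4% of all promoters and in Hsph1, Hspa1a, Hspa1b and Dnajb1 among the members. TGGAAA (or TTTCCA), the core letters of an NFAT site, was found in 21.4% of all promoters and in Hsph1 and Hspb1, where it overlaps the heat shock pairs.

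Beside the members, 103 other chaperone genes were listed in 11 classes, of which 96 had enough counts to test. This list too was chosen with earlier results of these data known, and the adjusted p-values do not allow for that choice. By edgeR's quasi-likelihood test, 16 of the 96 rose (16.7%), 15 fell (15.6%) and 65 did not pass an adjusted p of 0.05, against 16.9% and 17.8% of all genes tested. The class counts below stand beside these same shares of all genes, and each class holds only 3 to 17 tested genes. Their median log2 fold change was -0.02, and 89 of the 96 lay within 0.5 of 0. The 16 that rose became 9 in a fit with the replicate number as a block, 9 without control library 1 and 10 without control library 2. Cryab and Hspb2 met the criteria of differential expression, and 0 of the 96 did so in the lower direction.

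**Figure D4:**
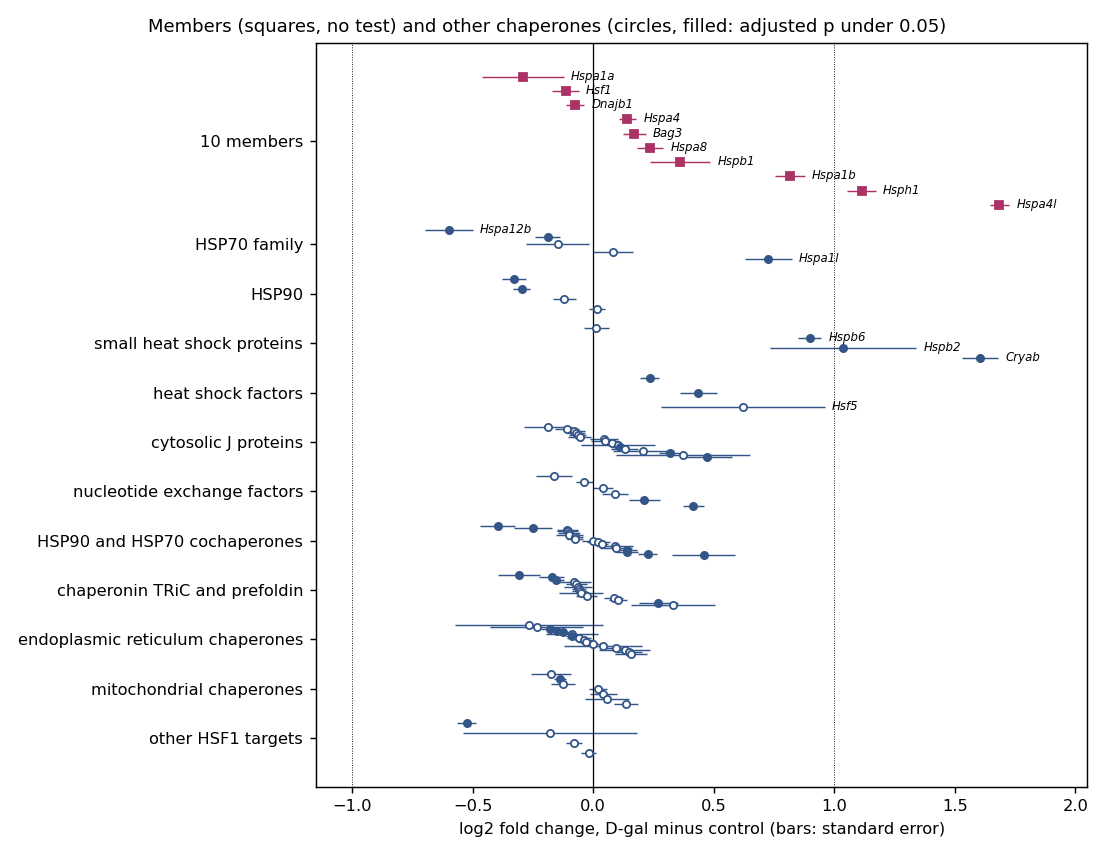
Log2 fold change of D-gal against control (horizontal axis; bars are standard errors) for the 10 members (squares, given without a test) and for 96 other chaperones by class (circles, filled where the adjusted p was under 0.05); dotted lines mark -1 and 1. Hspa4l (1.69), Cryab (1.61) and Hsph1 (1.11) lie farthest to the right, and 89 of the 96 other chaperones lie within 0.5 of 0.

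Small heat shock proteins other than Hspb1, which hold unfolded proteins until HSP70 takes them over, had 3 of 4 tested genes higher and 0 lower. Cryab, which encodes alpha-B crystallin, had 2095.8, 2143.6 and 2128.8 normalized reads in the controls against 5708.9, 7168.9 and 6498.4 after D-gal. It rose, and its log2 fold change of 1.61 had a standard error of 0.075 (adjusted p = 7.58e-06), with all D-gal libraries above all control libraries. Hspb6, a small heat shock protein of muscle, rose, with 783.7 to 807.0 normalized reads among controls against 1436.5 to 1562.8 under D-gal (log2 fold change 0.90, adjusted p = 1.33e-05). Hspb2 rose from a level of 8.57 to 17.7 normalized reads (log2 fold change 1.04, adjusted p = 0.0317), but it overlaps Cryab on the opposite strand. Its call was lost in 9 of 12 alternatives, among them DESeq2 (adjusted p = 0.176). Hspb8, the partner of Bag3, had a log2 fold change of 0.01 (adjusted p = 0.885), and Hspb3, Hspb7, Hspb9 and Cryaa had too few counts to test.

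Among HSP90 genes, whose proteins mature signalling proteins with help from HSP70, 2 of 4 fell and 0 rose. Hsp90ab1, the constitutive cytosolic form, fell (log2 fold change -0.30, adjusted p = 5.87e-04). Hsp90b1, the form of the endoplasmic reticulum, fell by 0.33 (adjusted p = 0.00174). The stress-inducible cytosolic Hsp90aa1 had a log2 fold change of 0.02 (adjusted p = 0.759), and the mitochondrial Trap1 had one of -0.12 (adjusted p = 0.1). Of the 31-base words of Hsp90aa1, 51.5% also occurred in other genes, so its counts may be split with them.

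Of the 5 other HSP70 genes, 1 rose and 2 fell. Hspa1l, which lies beside Hspa1a, rose, with 248.9 to 280.6 normalized reads among controls against 390.5 to 470.6 under D-gal (log2 fold change 0.73, adjusted p = 8.74e-04), and 71.7% of its 31-base words also occurred in other genes, mainly in Gm10501, which overlaps it on the opposite strand. Hspa12b, a distant relative known from endothelial cells, fell (log2 fold change -0.60, adjusted p = 0.00252). Hspa14, which works at the ribosome, fell by 0.19 (adjusted p = 0.0251), a call that was lost in 6 of 13 alternatives. Its deposited span (chr2:3488850-3512814) is wider than that in GENCODE M21 (chr2:3504527-3512790). Another annotated gene of the same name overlaps its exons on the same strand, so its counts may be split between them.

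Of the 3 tested genes for heat shock factors and their regulators, 2 rose. Hsf2, another heat shock factor that can form trimers with HSF1, rose by 0.44 (adjusted p = 0.0035), and Hsbp1, a small protein that binds heat shock factor trimers, rose by 0.23 (adjusted p = 0.00309). Hsf5 had a log2 fold change of 0.62 (adjusted p = 0.198) at a mean of 8.45 normalized reads in the control libraries, and Hsf3 and Hsf4 had too few counts to test.

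Cytosolic J proteins had 3 of 16 genes higher (18.8%, beside 16.9% of all genes tested) and 0 lower. The 3 were Dnajb5 (log2 fold change 0.47, adjusted p = 0.00947), Dnajb6 (0.32, adjusted p = 0.00123) and Dnajc9 (0.11, adjusted p = 0.0493). The other nucleotide exchange factors had 2 of 6 higher and 0 lower. Bag2, an exchange factor that also inhibits the ubiquitin ligase CHIP, rose by 0.42 (adjusted p = 2.69e-04), and Bag5 rose by 0.21 (adjusted p = 0.0349). Of 17 cochaperones of HSP90 and HSP70, 4 rose and 2 fell, among them the cyclophilin gene Ppid (0.23, adjusted p = 0.00398) and Ttc4 (0.46, adjusted p = 0.0294), which rose, and Fkbp5 (-0.40, adjusted p = 0.00418), an immunophilin gene known as a glucocorticoid target, which fell.

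The chaperonin TRiC and prefoldin, which fold actin and tubulin, had 1 of 14 genes higher and 3 lower. These were 7.14% and 21.4%, beside 16.9% and 17.8% of all genes tested. Pfdn2 rose by 0.27 (adjusted p = 0.0321), while Cct5 fell by 0.15 (adjusted p = 0.00634) and Pfdn5 fell by 0.31 (adjusted p = 0.0267). Chaperones of the endoplasmic reticulum had 0 of 16 higher and 4 lower, of which the 3 with the smallest p are Pdia6 (log2 fold change -0.18, adjusted p = 0.00541), Pdia3 (-0.15, adjusted p = 0.0152) and Calr (-0.09, adjusted p = 0.0238). Mitochondrial chaperones had 1 of 7 lower, Hspd1, the gene of HSP60, which fell by 0.14 (adjusted p = 0.00384) and shares 53.1% of its 31-base words with other genes. Of 4 other HSF1 targets, Ier5, an immediate early gene that acts on HSF1, fell by 0.53 (adjusted p = 5.7e-05) and 3 did not pass. The call was lost in 8 of 13 alternatives for Dnajc9 and Bag5, in 7 for Calr and in 6 for Ttc4. It was lost in 4 for Pfdn2 and Pfdn5, in 2 for Pdia3 and in 1 for Cct5 and Hspd1.

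Genes whose pattern over the 6 libraries lay closest to that of Hspa4l were found by the mean absolute difference of log2 normalized counts, each centred on its control mean, over 10412 genes with a mean of at least 100 counts. The closest was Sod3, the extracellular superoxide dismutase (0.044), then Afap1l2 (0.050), Cryab (0.051), Kctd12b (0.052) and Me1, the cytosolic malic enzyme (0.053). Cryab, at place 3, was the chaperone gene among them. Sod3 had 2859.2, 2940.8 and 2828.6 normalized reads among controls, while D-gal libraries gave 8563.9, 9269.9 and 8673.3. Its log2 fold change was 1.62 beside 1.69 for Hspa4l. Of the members, Hsph1 (0.293, place 57) and Hspa1b (0.459, place 137) were the most like Hspa4l. Hspa1a, with a mean under 100 counts, was not ranked. All these distances come from the same 6 libraries and describe likeness of size and pattern, without a test.

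**Figure D5:**
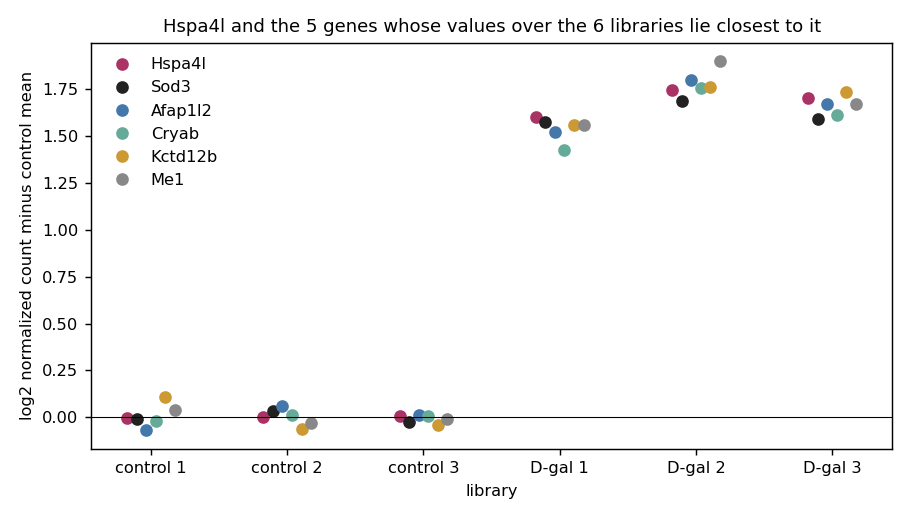
Log2 normalized count minus the control mean (vertical axis) in each library for Hspa4l and the 5 genes closest to it; each point is 1 library. All 6 genes lie near 0 in the control libraries, and Hspa4l lies at 1.60, 1.75 and 1.70 in D-gal libraries 1 to 3.

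Cells answer added solute by making or importing small organic osmolytes. Of 5 listed genes of this osmotic response, 4 rose (80%), beside 16.9% of all genes tested. The list was drawn up with earlier results of these libraries known, so nothing is read from this count. The adjusted p-values of these genes do not allow for that choice. Akr1b3, the aldose reductase that makes sorbitol, rose by 2.33 on the log2 scale (adjusted p = 4.47e-06) and Slc6a12, a betaine carrier, by 4.23 (adjusted p = 4.82e-04), while Slc5a3, a myo-inositol carrier, rose by 0.55 (adjusted p = 5.68e-05) and Slc6a6, a taurine carrier, by 0.13 (adjusted p = 0.00977). Nfat5, the transcription factor of this response, had a log2 fold change of 0.41 (adjusted p = 0.296), with 4592.5 normalized reads in control library 1 against 10902.3 and 10892.5 in the others. Without that library its log2 fold change was 0.10 (adjusted p = 0.0389), and that of Slc6a12, at 25.3 normalized reads there and 4.08 and 4.04 in the other control libraries, was 5.67. The part of an osmotic response in the chaperone values was not tested, and no other sugar was given at this dose in these libraries.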

How the data were processed

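The members and gene lists were chosen with earlier results of these data known. RNA-seq libraries of NOR-10 cells were grouped by their labels (3 control, 3 D-gal). The deposited table holds, per gene and library, raw read counts and FPKM, which the authors computed from the counts, a gene length and the library total. Alignment used HISAT2 2.0.4 per the submitters' processing notes, after read trimming by the authors. The counting tool, strand setting, annotation and genome build are not given in the sources used here. The gene spans were compared with GENCODE M21 (GRCm38), where 7 of the 10 members had the same span (Hspa8, Hsf1 and Dnajb1 differed). Every column of values was assigned to its sample through the column name.

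Counts of all genes were fitted with edgeR 4.0.16 (R 4.3.3; TMM, filterByExpr, quasi-likelihood test, group as the single term, Benjamini-Hochberg adjustment over 13407 genes). The functions were tested on simulated data. Normalized counts are counts per TMM-scaled library size times its mean, and standard errors are the log2 fold change over the root of F. The study's thresholds were used (adjusted p under 0.05 and a log2 fold change whose size is 1 or more). All pairs of replicates differed by more than sampling noise. Depth limits genes with few counts, such as Hspb2 and Hsf5.

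Named genes are the members, the HSP90, small heat shock protein and heat shock factor genes, up to 3 genes with the smallest p in each other class, the 5 genes closest to Hspa4l and 5 osmotic response genes. Alternatives were RLE factors, DESeq2 1.42.0, other count filters (none, or 10 counts or more per library), the replicate block, limma 3.58.1 on log2(FPKM + 1), thinned counts, an adjusted p under 0.01, merged exon lengths, each library left out and, added after seeing the data, Hspa1a and Hspa1b summed.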

Additional observations from a re-analysis of the deposited data

How the results depend on the processing

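The log2 fold changes of the 10 members kept their sign under every alternative run. That of Hspa4l lay between 1.63 (limma on log2(FPKM + 1)) and 1.72, and that of Dnajb1 between -0.09 and -0.04 (limma). Leaving out 1 library moved Hspa1a between -0.42 and -0.17 and Hspb1 between 0.24 and 0.48. Summing the counts of Hspa1a and Hspa1b gave 0.78 in place of 0.82 for Hspa1b. With merged exon lengths the share of Hspa4l in the HSP110 sum was 7.99% in control and 15.9% in D-gal. The count of other chaperones that rose was 9 with the replicate block, 9 at an adjusted p under 0.01 and 9 to 14 when 1 library was left out. The count that fell was 6 with limma on log2(FPKM + 1) and 8 at an adjusted p under 0.01. Over all genes, 119 were differentially expressed with limma on log2(FPKM + 1), against 564, and 2729 had an adjusted p under 0.01. With the replicate block 3982 genes had an adjusted p under 0.05, against 4661. The deviations of same-numbered control and D-gal libraries correlated at 0.015 to 0.057 over 10412 genes, so the numbers were not taken as pairs, although each library correlated best with its own number. For the 39 other named genes, 444 of 504 values kept their direction and their side of the threshold, 56 lost the call, 1 gained it (Nfat5 without control library 1) and 3 changed sign with no call in either fit. The sign changes were Hsp90aa1 without D-gal library 1 (-0.017, from 0.016) and Hspb8 (from 0.012) without control library 2 (-0.025) or D-gal library 1 (-0.008). Over all fits with 1 library left out, Hsp90aa1 lay between -0.017 and 0.036 and Hspb8 between -0.025 and 0.045. Depth limits Hspb2 and Hsf5, with under 21 normalized reads in every library. The cause of these shifts was not tested.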

Other observations

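After their values were seen, the members and listed genes were searched for wide spread within a group. Of 109 such genes with a mean of at least 100 normalized reads in a group, 8 had a highest library over 1.5 times the lowest of the same group. None of the 10 members was among them, and the highest ratio of a member with that mean was 1.40. Zfand2a, an HSF1 target whose product works with the proteasome, had the highest ratio of the 8, with 341.2 normalized reads in D-gal library 1 against 1094.2 and 1138.7 in the other D-gal libraries. Nfat5 had 4592.5 in control library 1 against 10902.3 and 10892.5 in the other controls. Serpinh1, the collagen chaperone HSP47, had 22209 in control library 3 against 12009.4 and 11723.2, and 18252.6 in D-gal library 2 against 10148.5 and 9795.1. Dnajb4, a J protein, had 762.5 in control library 1 against 421.9 and 445.4, and 460.3 in D-gal library 3 against 822.6 and 823.4. Hspa5, the HSP70 of the endoplasmic reticulum, had 6397.3 in control library 2 against 10188.9 and 10467.3. The other 3 were Dnajc1 in the control group (573.6 to 1064), and Pfdn4 (283.9 to 466.3) and Slc6a12 (157.1 to 269.7) in the D-gal group.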
